A study of Mus musculus with 4 samples.

Results

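Luminal progenitor cells that carried at least 1 count of Cd55 were taken from droplet single-cell RNA-seq of mouse mammary epithelium. They numbered 328 of 1661 luminal progenitor cells (19.7%) and of 10596 cells in all. A cell was called a luminal progenitor (LP) if it had a count for at least 3 of Cd14, Lalba, Plb1, Atp6v1b1 and Aldh1a3, for at most 1 of the mature luminal genes Stc2, Upk3a, Plac8, Tspan1, Prlr and Cited1, and for at most 2 of the basal genes Krt5, Krt17, Acta2, Myl9, Tagln, Mylk and Cnn1. These cells were therefore chosen by their measured counts of Cd55 and of these 18 genes, which are given below as values with no test.

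The cells came from FVB/NJ females, either pubertal (5 weeks old) or adult (10 weeks old) and in the estrus or the diestrus phase of the ovarian cycle. No animal carried a transgene or received a treatment, and per the study's methods the epithelium was sorted as lineage-negative, CD24-positive cells from cell suspensions of pooled mice, more for puberty than for each adult phase. Each stage had 1 library, so stages are set side by side without a test. The puberty library held 5428 cell barcodes, the estrus library 2729 and the diestrus library 2439, with a median of 4103, 3236 and 3974 counts per cell. Libraries of different stages shared 13 to 24 barcodes, of which at most 1 was an LP cell in both. A second puberty table shared 5387 barcodes with the first and was kept as an alternative, not as a replicate.

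Cd55 encodes decay-accelerating factor, a GPI-anchored surface protein that dissociates the C3 and C5 convertases and so protects a cell from complement. Luminal progenitors are the hormone receptor-negative cells of the inner mammary layer, which express Kit and Elf5 and give rise to the milk-secreting alveolar cells. The study used CD55 as a surface marker of cells with high colony-forming capacity. The question addressed here was what else in the transcriptome accompanied a Cd55 count within LP cells.

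Cd55 was detected in 189 of 1055 LP cells in puberty (17.9%, 95% exact binomial interval 15.6 to 20.4%). In estrus it was detected in 73 of 323 LP cells (22.6%, 18.2 to 27.6%), and in diestrus in 66 of 283 (23.3%, 18.5 to 28.7%). The 3 intervals overlapped, and they cover counting error only. The summed level, as CPM (the count divided by all counts of the cells and scaled to 1e6), was 54.7 in puberty, 68.0 in estrus and 56.8 in diestrus, so the stages had a different order by level than by share.

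**Figure D1:**
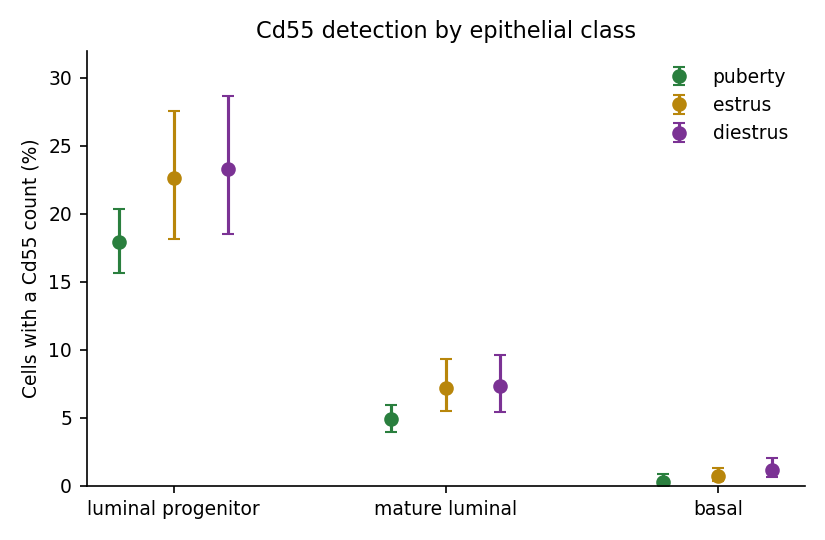
Percentage of cells with at least 1 Cd55 count in luminal progenitor, mature luminal and basal cells, with 1 point per library and exact binomial 95% intervals. Luminal progenitors lay between 17.9 and 23.3%, mature luminal cells between 4.87 and 7.30% and basal cells at or under 1.18%.

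Cd55 was lower in the other epithelial classes of all 3 libraries. Mature luminal cells, called by at least 3 of their own rule genes, had one in 4.87% of puberty, 7.22% of estrus and 7.30% of diestrus cells. Basal cells, called by at least 4 of the 7 basal genes, had one in 0.285%, 0.701% and 1.18%. Basal cells stood as the low reference, with median depths of 2885, 2549 and 3416 counts against 4147, 3664 and 4414 in LP cells. Cd55 lies at chr1:130439027-130462744 on the minus strand (GRCm38). Its neighbour Cd55b (chr1:130388537-130423009, minus strand), which encodes a closely related complement regulator, had 0 counts in all 10596 cells, which allows a share of cells with a captured Cd55b molecule of up to 0.0283% (3 counts of the total) and does not bound how many cells express it. None of the 50-base windows in the last 500 bases of Cd55 transcripts was found in another gene, and 9.31% of those of Cd55b were found in Cd55.

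A Cd55 count was mostly a single molecule. In puberty 127 LP cells had 1 count and 62 had more, up to 6 in a cell. In estrus these numbers were 57 and 16, with a maximum of 3, and in diestrus 51 and 15, with a maximum of 5. The Cd55-positive cells just inside the threshold thus made up 67.2%, 78.1% and 77.3% of all Cd55-positive cells, and the LP cells just outside it had 0 counts. Had every LP cell of a library held Cd55 at 1 common level, its depth alone would have given 230.6, 77.2 and 70.9 positive cells and 33.0, 12.7 and 12.7 cells with more than 1 count. Observed were 189, 73 and 66 positive cells, and 62, 16 and 15 cells with more than 1 count. The departure from a single level was widest in puberty and small in both adult libraries, and it was not tested. An LP cell with 0 counts is therefore a cell in which no Cd55 molecule was captured, which at this depth does not show that it had none.

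**Figure D2:**
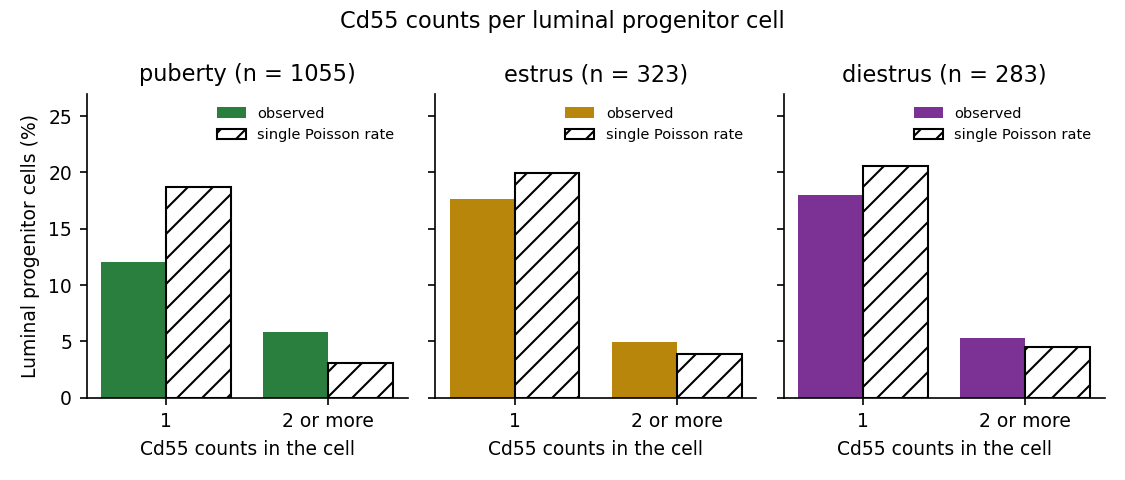
Percentage of luminal progenitor cells with 1 and with 2 or more Cd55 counts in each library (filled bars), beside the percentages that a single Poisson rate per unit of depth would give (hatched bars). In puberty 62 cells had 2 or more counts against 33.0 under the single rate, whereas in estrus 16 stood against 12.7.

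Detection was highest in the deepest cells of each library. Among puberty LP cells cut into 3 equal groups by total counts, the share with a Cd55 count was 14.2% in the shallowest, 17.7% in the middle and 21.9% in the deepest. In estrus it was 21.3%, 15.9% and 30.6%, and in diestrus 14.9%, 23.4% and 31.6%. The level over the same groups ran 84.8, 59.5 and 41.3 CPM in puberty, 116.9, 57.7 and 57.4 CPM in estrus, and 65.0, 71.6 and 47.1 CPM in diestrus. It was thus lowest in the deepest cells, where the share was highest, so no order is read from the shares. After each cell was thinned to 2000 counts, Cd55 was detected in 8.69% of puberty, 11.1% of estrus and 10.6% of diestrus LP cells, with 65, 35 and 19 shallower cells left out. In the second puberty table, 123 of the 188 Cd55-positive cells found there again had a Cd55 count (65.4%), against 4 of the 189 matched cells (2.12%). That table shares cells and molecules with the first and is no independent measurement.

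The luminal progenitor label held on Elf5, Kit and Trf, which the rule did not use, while some other listed markers were rare. Elf5, the transcription factor of alveolar commitment, had a count in 58.2%, 78.1% and 80.3% of the puberty, estrus and diestrus Cd55-positive cells. In mature luminal cells it reached at most 2.76% and in basal cells at most 0.857%. Kit, the stem cell factor receptor, had a count in 18.5%, 13.9% and 25% of the Cd55-positive cells that were later paired by depth, and in 16.4%, 13.9% and 14.1% of their matched cells, within overlapping intervals. Trf, which encodes transferrin, was found in every Cd55-positive cell. Of the other listed progenitor markers, Itgb3 had a count in 4.23%, 2.78% and 3.13% of the paired Cd55-positive cells. Itga2 had one in 1.59%, 0% and 1.56% of them.

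Several defining genes of the other lineages were rare in the Cd55-positive cells, but others were not. Pgr, the progesterone receptor, had a count in 0 of 328, which allows a share of cells with a captured molecule of up to 0.915% (again from 3 counts), against 17.5%, 10.2% and 15.2% of mature luminal cells. Esr1, the estrogen receptor, was seen in 3.70%, 1.37% and 1.52% of them, and the basal regulator Trp63 in 1 cell. Krt14, the basal keratin, was seen in 5.29%, 1.37% and 10.6% of them and in 90.9% or more of basal cells in each library. In contrast, Krt19, a keratin of luminal cells listed with the mature markers, had a count in 84.7 to 96.9% of the paired Cd55-positive cells, Ly6d in 29.7 to 31.9%, the growth factor gene Ptn in 16.7 to 34.4% and the basal integrin gene Itga6 in 10.9 to 14.3%. Among markers of cells outside the epithelium, 9 of 11 immune, 6 of 9 endothelial, 3 of 11 fibroblast or pericyte and 5 of 5 erythrocyte genes had 0 counts in the Cd55-positive cells. Their summed levels were at most 15.0 CPM for immune and 26.8 CPM for endothelial genes. The fibroblast and pericyte list ran from 69.6 to 112.8 CPM, of which Igfbp7, a gene also made by epithelium, gave 36.2 to 106.5 CPM.

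For the main comparison, each Cd55-positive cell was paired with the LP cell of the same library that had no Cd55 count and the nearest total, within 10%. This paired 189 puberty, 72 estrus and 64 diestrus cells, and left 3 without a partner. Counts were summed over each set, giving 6 sums (pseudobulks) of 905651 and 903568 counts in puberty, 308682 and 306687 in estrus, and 351951 and 351325 in diestrus. The CPM values of this comparison use totals after TMM scaling, which corrects for differences in composition.

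Cells with and without a Cd55 count differed little in their general state. The median number of genes per cell was 1253 in Cd55-positive and 1231 in matched cells in puberty, 1456.5 and 1395.5 in estrus, and 1704.5 and 1702 in diestrus. The median mitochondrial share was 0.537% and 0.581%, 0.526% and 0.509%, and 0.451% and 0.467% in the same order. The share of ribosomal protein counts was 22.9% and 23.5%, 18.3% and 17.4%, and 25.3% and 24.7%. The median number of genes was higher in Cd55-positive cells in all 3 libraries. In diestrus that order turned with 2 matched cells per member (1681 and 1684). Neither the mitochondrial nor the ribosomal share was higher in the same set in all 3 libraries. Cycling cells, with a count for at least 3 of 10 mitosis and S-phase genes, made up 6.35% of Cd55-positive and 9.52% of matched cells in puberty, 6.94% and 4.17% in estrus, and 14.1% and 17.2% in diestrus. Their intervals overlapped in each library.

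Some rule genes differed between the sets in single libraries. Cd14, a lipopolysaccharide co-receptor and a progenitor surface marker, was at 2146 CPM in Cd55-positive and 1603 CPM in matched cells in puberty, 1679 and 1733 in estrus, and 1266 and 1319 in diestrus, with a count in 92.6 to 98.4% of cells of every set. Lalba, the milk protein that modifies lactose synthase, was at 6359 and 5032, 4154 and 4894, and 2084 and 2586 CPM. Aldh1a3, a retinaldehyde dehydrogenase used as a progenitor marker, was at 204 and 174, 288 and 124, and 107.0 and 91.0 CPM. Cd14 and Lalba changed order between libraries, while Aldh1a3 was higher with Cd55 in each. Poisson intervals were apart for Cd14 in puberty, for Lalba in all 3 libraries and for Aldh1a3 in estrus. These intervals leave out the spread between cells, so they are no test of a difference. The share of cells with a Lalba count was 87.8% in both sets in puberty, 87.5% and 84.7% in estrus, and 54.7% and 56.25% in diestrus. The prolactin receptor gene Prlr, a mature luminal rule gene, was at 81.2 and 56.6 CPM in puberty, 31.3 and 89.0 CPM in estrus (intervals apart) and 29.4 and 39.0 CPM in diestrus. Plb1 and Atp6v1b1 were higher with Cd55 by small amounts in each library, within overlapping intervals. The share of cells with an Aldh1a3 count was 38.6% and 33.9%, 34.7% and 30.6%, and 34.4% and 31.3%, all within overlapping intervals. A count for any mature luminal rule gene was present in 39.2% of Cd55-positive and 28.6% of matched cells in puberty, in 23.6% and 38.9% in estrus, and in 26.6% and 32.8% in diestrus. A count for any basal rule gene was present in 13.8% and 13.8%, 9.72% and 18.1%, and 31.3% and 37.5%.

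Of 3958 genes tested, 2 rose in the Cd55-positive cells and 0 fell (edgeR's quasi-likelihood test with library as a block, Benjamini-Hochberg adjusted p under 0.05). The 2 genes, Apod and Chil1, are 0.0505% of those tested. At an unadjusted p under 0.05, 122 genes were higher (3.08%) and 89 lower (2.25%), and DESeq2 called 0 genes, with 11 higher and 3 lower at that limit. The median log2 fold change over the tested genes was 0.01, and 90% of them lay between -0.43 and 0.44. For 727 genes with a mean of at least 200 CPM that range narrowed to between -0.21 and 0.23, and 5 of them differed by more than 0.5 on the log2 scale.

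**Figure D3:**
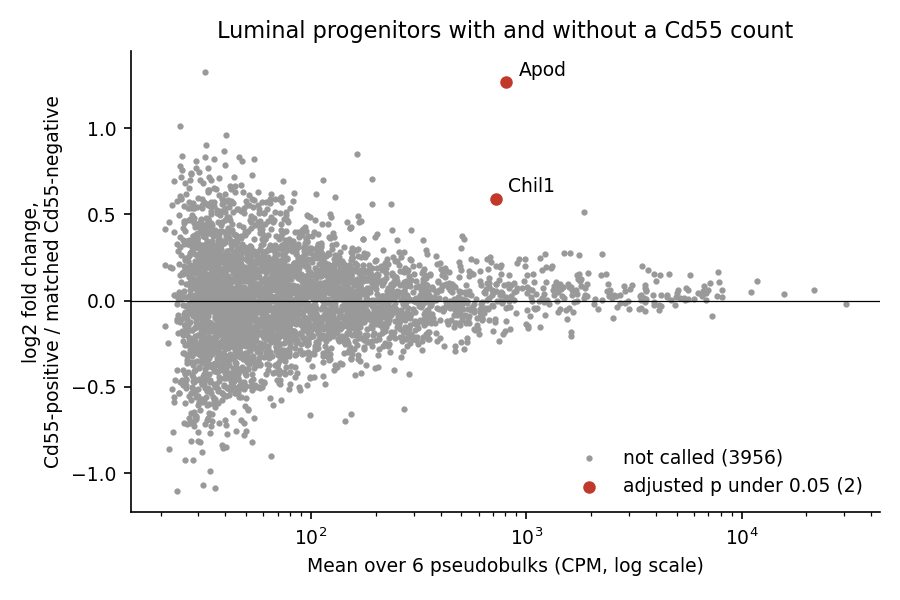
Fitted log2 fold change of Cd55-positive over matched luminal progenitors against mean level in CPM (log scale) for the 3958 genes tested, with the 2 genes that passed in red. The cloud narrows with level to between -0.21 and 0.23 for 90% of genes above 200 CPM, and Apod and Chil1 lie above it at 1.27 and 0.59.

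Libraries of different stages lay further apart than the sets with and without a Cd55 count within a library. Over the same 727 genes, the median absolute log2 difference between Cd55-positive and matched cells was 0.11 in puberty, 0.14 in estrus and 0.15 in diestrus, and 0, 2 and 5 genes differed by more than 1. Between the Cd55-positive cells of 2 stages the median was 0.31 for puberty against estrus, 0.31 for puberty against diestrus and 0.38 for diestrus against estrus, with 98, 73 and 127 genes beyond 1. The matched cells differed between stages in the same range (0.28 to 0.43). These are descriptions of 3 libraries with no replicate at any stage, so the distances between libraries cannot be credited to stage. Cells without a Cd55 count may also hold Cd55, so the 2 sets within a library are not fully separated.

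Apod encodes apolipoprotein D, a secreted lipid-binding protein (chr16:31296192-31314808, minus strand, GRCm38). Its level was 1923 CPM in Cd55-positive and 1053 CPM in matched cells in puberty, 761 and 172 CPM in estrus, and 664 and 252 CPM in diestrus. The Cd55-positive sum was the higher one in 3 of 3 libraries. The fitted log2 fold change was 1.27 ± 0.16 (SE from edgeR's test statistic, edgeR adjusted p = 0.0122). The log2 differences of the 3 libraries had an SD of 0.63. The gene belonged to LP cells, with a count in 31.1%, 15.8% and 16.6% of them against at most 1.38% of mature luminal and 3.51% of basal cells.

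The higher Apod sums did not come with a higher share of Apod-positive cells in puberty or diestrus, and few cells held most of the counts. Apod had a count in 31.2% of Cd55-positive and 33.9% of matched cells in puberty, in 19.4% and 12.5% in estrus, and in 10.9% and 25% in diestrus. In estrus 1 Cd55-positive cell held 194 of 243 counts, and 1 matched cell held 33 of 54. In diestrus the largest cell held 115 of 248 counts in the Cd55-positive set, and in puberty 5 of 189 cells held 53.2% of the counts. With the cell holding most Apod left out of each of the 6 sums, a setting added after the data were seen, the mean log2 difference over the libraries went from 1.45 to 0.92. Per library it went from 0.87 to 0.83 in puberty, from 2.12 to 1.14 in estrus and from 1.38 to 0.78 in diestrus. Without the deepest 5% of LP cells the fitted value was 0.59 (edgeR adjusted p = 0.67), and it did not pass without the estrus (adjusted p = 0.275) or the diestrus library (adjusted p = 0.199).

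Nor did Apod follow the number of Cd55 counts in the adult libraries. Over all LP cells, in CPM of all counts, puberty cells with 0, 1 and 2 or more Cd55 counts had 1339, 1270 and 2306 CPM of Apod. In estrus they had 197.5, 886 and 69.9 CPM, and in diestrus 280.1, 790 and 176 CPM. The 16 estrus and 15 diestrus cells with 2 or more counts were thus at or below the cells with none.

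Chil1 encodes chitinase-like 1, a secreted chitin-binding lectin of inflammation and tissue remodelling (chr1:134182176-134190181, plus strand, GRCm38). Unlike Apod, Chil1 was also common in basal cells, with a count in 28.3%, 24.1% and 35.3% of them in puberty, estrus and diestrus. In LP cells that share was 51.3%, 40.9% and 46.3%, and in mature luminal cells at most 3.02%. Chil1 was at 947 CPM in Cd55-positive and 663 CPM in matched cells in puberty, 636 and 445 CPM in estrus, and 1022 and 609 CPM in diestrus. The Cd55-positive sum was again higher in 3 of 3 libraries, with a log2 fold change of 0.59 ± 0.09 (SE, edgeR adjusted p = 0.0380). It was detected in more cells than Apod: 60.3% and 47.6% in puberty, 52.8% and 45.8% in estrus, and 48.4% and 48.4% in diestrus. Still, few cells held much of it in the adult libraries. The 5 cells with most Chil1 held 27.4% of the counts in Cd55-positive and 36.4% in matched cells in puberty. These shares were 49.3% and 51.4% in estrus, and 52.9% and 60.7% in diestrus. When all LP cells without a Cd55 count were used in place of matched ones, the log2 fold change was 0.18 (adjusted p = 0.969), and with 2 matched cells per member it was 0.27 (adjusted p = 0.132). Without the estrus or the diestrus library the adjusted p was 0.60 and 0.666. Over all LP cells, those with 0, 1 and 2 or more Cd55 counts had 731, 741 and 897 CPM of Chil1 in puberty, 429, 641 and 433 CPM in estrus, and 907, 1133 and 361 CPM in diestrus. Diestrus cells with 2 or more Cd55 counts were thus below those with none. Their Poisson intervals were apart, but such intervals leave out the spread between cells. The call depended on which cells stood for the Cd55-negative LP cells.

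**Figure D4:**
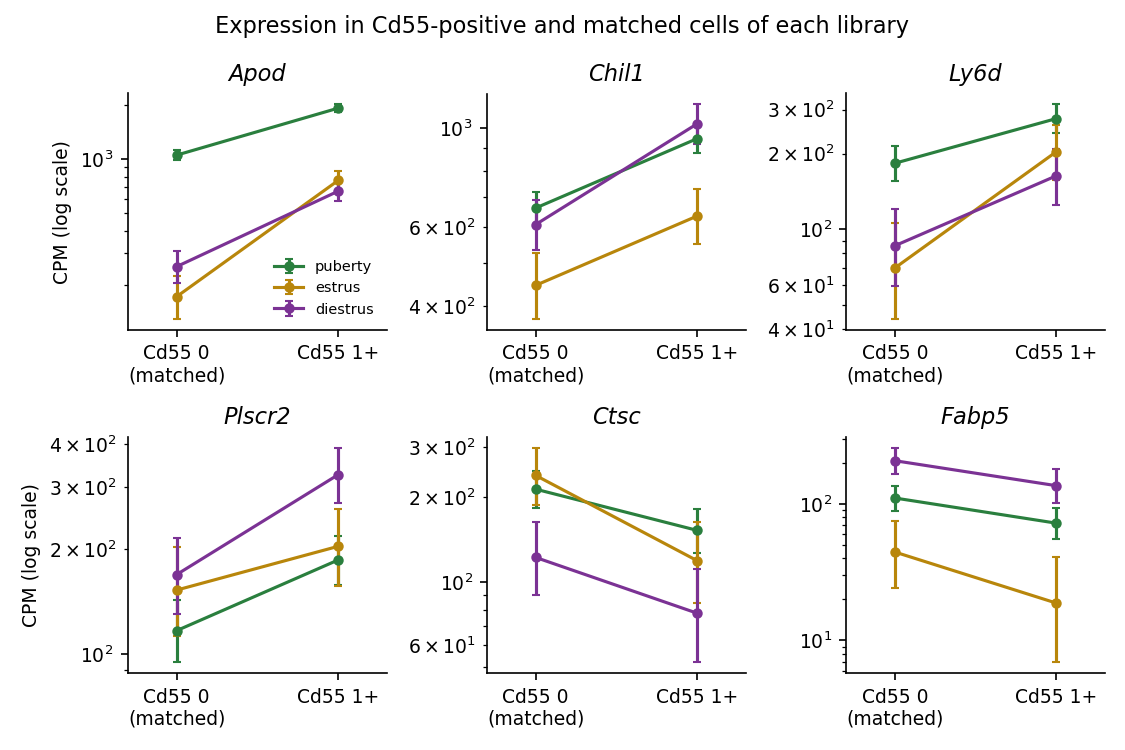
Level in CPM (log scale) of 6 genes in matched Cd55-negative and Cd55-positive cells, with 1 line per library and 95% Poisson intervals on the counts. Apod and Chil1 passed the test and the other 4 did not, and each of the 6 moved the same way in all 3 libraries.

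Other genes came close without passing. Ly6d, a GPI-anchored Ly6 protein that marks mature luminal cells (chr15:74762056-74763620, minus strand), had the smallest p among genes higher with Cd55 that did not pass. It was at 276 CPM in Cd55-positive and 183 CPM in matched cells in puberty, 203.6 and 70.0 CPM in estrus, and 163 and 85.8 CPM in diestrus (log2 fold change 0.85 ± 0.17 SE, edgeR adjusted p = 0.233). A Ly6d count was present in 31.7% and 25.9%, 31.9% and 19.4%, and 29.7% and 28.1% of cells. Over all LP cells its level was 144.6, 209.8 and 274.7 CPM in puberty cells with 0, 1 and 2 or more Cd55 counts, 95.8, 160.1 and 307.6 CPM in estrus, and 105.2, 138.8 and 185.1 CPM in diestrus. Ly6d was thus highest in the cells with most Cd55 counts in each library. Poisson intervals of cells with 2 or more counts and of cells with none were apart in puberty and estrus and overlapped in diestrus. Few cells held much of it: 5 Cd55-positive cells held 42.1% of the Ly6d counts in puberty, 58.5% in estrus and 70.5% in diestrus. In estrus the share of cells with a Ly6d count was 33.3% at 1 Cd55 count and 25% at 2 or more. Mature luminal cells held 3956, 4447 and 2529 CPM of Ly6d, and its adjusted p was under 0.05 in 5 of the 14 alternatives, among them 2 matched cells per member (3.03e-06).

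Plscr2, a phospholipid scramblase, had a log2 fold change of 0.70 (edgeR adjusted p = 0.233), and Timp2, an inhibitor of matrix metalloproteinases, one of 0.70 (adjusted p = 0.482). On the lower side, Ctsc, a lysosomal dipeptidyl peptidase, was at 152 CPM in Cd55-positive and 213 CPM in matched cells in puberty, 119 and 239 CPM in estrus, and 77.6 and 122 CPM in diestrus. Its log2 fold change was -0.66 ± 0.15 (SE, edgeR adjusted p = 0.482). Fabp5, a fatty acid-binding protein, was lower by a similar amount (-0.66, adjusted p = 0.838). Further genes on this side, all with adjusted p = 0.838, were Zfp706 (-0.43), the mitochondrial protein gene C1qbp (-0.40) and the axon guidance gene Ntn1 (-1.09). Of the 50-base windows at the end of Zfp706, 38.6% were found in other genes, so its counts are uncertain.

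Gene lists were read by their counts and medians beside those of all 3958 genes, of which 51.2% had a positive sign, and no gene of any list passed the adjusted test. Of 18 complement genes other than Cd55, 6 were at 0 in all sums and 5 were high enough to be tested. Of these 5, 2 had an unadjusted edgeR p under 0.05 on the higher side (background 3.08%) and 1 on the lower (background 2.25%). Clu, which encodes clusterin, an inhibitor of the terminal complement complex, was at 1303 and 1064, 1685 and 1574, and 1948 and 1449 CPM (log2 fold change 0.28, edgeR unadjusted p = 0.00565, adjusted p = 0.838). C1qbp, which encodes a mitochondrial protein that also binds C1q, was at 207.4 and 281.9, 147.2 and 197.2, and 278.3 and 351.2 CPM, lower with Cd55 in 3 of 3 libraries (log2 fold change -0.40, edgeR unadjusted p = 0.004, adjusted p = 0.838). C3, named after its values were seen, had 0.57, the membrane regulator Cd59a 0.16 and the regulator Cr1l -0.10. Of 11 tested GPI-anchored surface protein genes, 9 had a positive sign with a median of 0.05. In all 3 libraries 3 of the 11 were higher, against 13.6% of all tested genes. On the higher side 1 of 11 had an unadjusted edgeR p under 0.05 (background 3.08%). Cd24a, used in the sort, had -0.01.

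Of 15 tested LP markers outside the rule, 11 had a positive sign and the median was 0.08. In all 3 libraries 1 was higher and 2 were lower, against 13.6% and 13.4% of all tested genes. An unadjusted p under 0.05 on the higher side was found for 3 of 15 (background 3.08%). These were Mfge8, Ltf and, named after its values were seen, Car2 (carbonic anhydrase 2, 0.26), each with adjusted p = 0.838. Mfge8 and Ltf changed direction between libraries. Both are counted again in the milk list, and Ltf also in the innate defence list. Csn3 (kappa-casein) had 0.02, Trf 0.06, Lcn2 (lipocalin 2, an iron-chelating defence protein) 0.08 and Mfge8 (the milk fat globule protein lactadherin) 0.20. Milk and alveolar genes had a median of 0.06 over 15 tested, of which 3 had such a p, namely Mfge8, Ltf and, named after its values were seen, Wfdc3 (0.46, adjusted p = 0.838), with Csn2 (beta-casein) at 0.06, Csn1s2a at 0.11 and Spp1 (osteopontin) at -0.02. Among 19 tested luminal and progenitor transcription factors the median was 0.06, with Elf5 at -0.04, Klf6 at 0.06, Hes1 at -0.05 and Id2 at 0.17. In this list 3 of 19 had an unadjusted p under 0.05 on the higher side (background 3.08%), and these, named after their values were seen, were Sox9 (0.42), Id1 (0.39) and Klf5 (0.36), each with adjusted p = 0.838. The 4 tested Notch genes had a median of -0.03, with Notch1 at -0.27 and Hey1 at -0.01.

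Innate defence genes had the highest median of the 13 lists with more than 1 tested gene. Of 17 tested innate defence and NF-kB target genes, 15 had a positive sign and the median log2 fold change was 0.19. In all 3 libraries, 4 of the 17 were higher and 1 was lower, against 13.6% and 13.4% of all tested genes. An unadjusted edgeR p under 0.05 on the higher side was found for 4 of 17 (background 3.08%), Ltf and Nfkbia among them. Ltf (lactoferrin) was at 2567 and 2575 CPM in puberty, 2271 and 1689 CPM in estrus and 1490 and 567 CPM in diestrus, so its value of 0.52 came from the adult libraries. Nfkbia, the NF-kB inhibitor, had 0.27 and was higher with Cd55 in 3 of 3 libraries. The other 2, named after their values were seen, were the chemokine Cxcl16 (0.62) and the adhesion molecule Icam1 (0.63), and Cxcl1 had 0.08. All 4 had an adjusted p of 0.838. Of 20 tested immediate early and heat shock genes, 17 had a positive sign with a median of 0.13. In all 3 libraries 5 of the 20 were higher, against 13.6% of all tested genes. Here 3 of 20 had an unadjusted edgeR p under 0.05 on the higher side (background 3.08%) and 0 on the lower. The summed level of the list was 20398 and 21052 CPM in puberty, 43634 and 41771 CPM in estrus, and 29488 and 23165 CPM in diestrus. Junb was at 0.15, Ier2 at 0.10, Hspa8 at 0.06 and Fos at 0.02. Fos was at 2300 and 3194 CPM in puberty, 7960 and 7543 in estrus, and 5820 and 4253 in diestrus, in opposite directions in puberty and diestrus.

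Mitosis and replication genes had the lowest median, -0.24 over 14 tested, of which 3 had a positive sign and 1, Tyms (-0.58), had an unadjusted p under 0.05 (background 2.25% lower). The list overlaps the genes of the cycling call, and the summed level of the whole list was 1136 and 1450 CPM in puberty, 1422 and 881 CPM in estrus, and 1718 and 2302 CPM in diestrus, the same order in each library as the cycling shares. Pcna, the replication clamp, had 0.29, Hmgb2 -0.23, Stmn1 -0.14 and Ube2c -0.26. Keratin and junction genes of luminal cells had a median of 0.08 over 16 tested, with Krt18 at 0.17, Krt8 at 0.16, Epcam at 0.09 and Krt19 at -0.05. Among these 16, 2 had an unadjusted edgeR p under 0.05 on the higher side (background 3.08%). Hypoxia and glycolysis genes had a median of -0.03 over 12 tested, with Ldha at -0.06, Gapdh at -0.04, Eno1 at -0.02 and Aldoa at 0.07. Of mature luminal markers outside the rule 4 of 16 were tested (Ly6d 0.85, Ly6a 0.05, Krt19 -0.05, Ptn -0.41), and of basal markers 2 of 18 (Krt14 0.33, Itga6 -0.19).

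**Figure D5:**
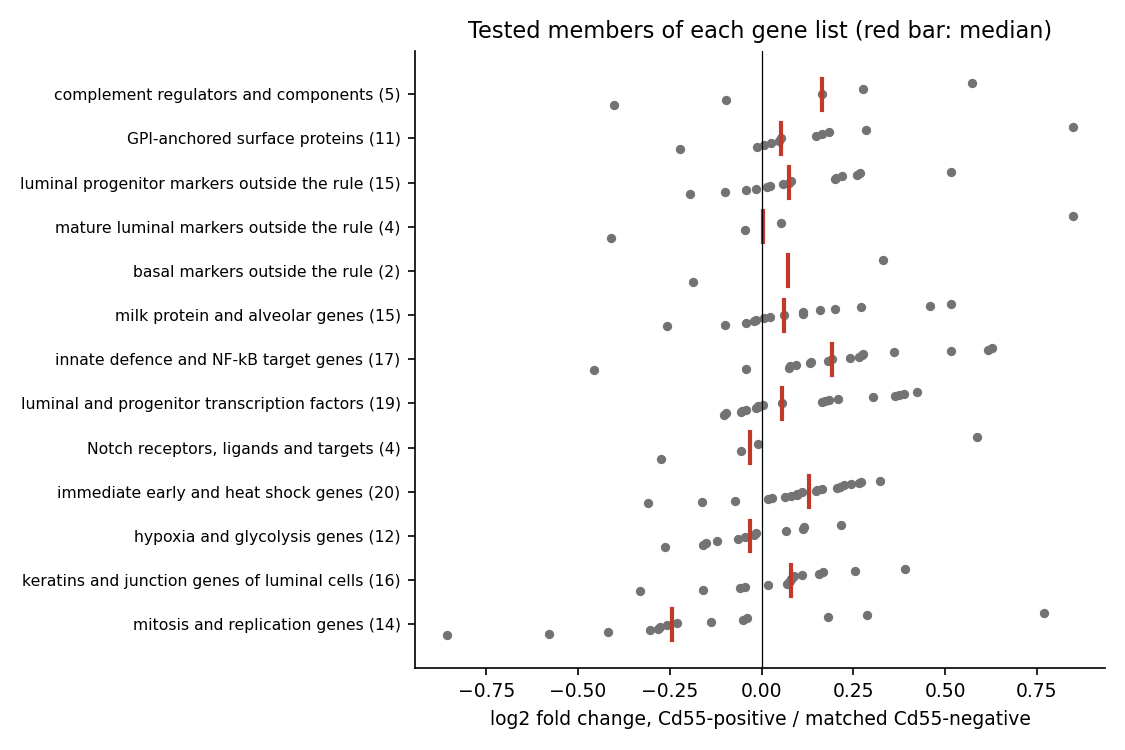
Fitted log2 fold change of Cd55-positive over matched luminal progenitors for each tested gene of 13 lists, 1 point per gene, with the list median as a red bar and the number tested in brackets. Medians lay between -0.24 (mitosis and replication) and 0.19 (innate defence), against 0.01 over all 3958 genes.

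Axl, Sparc, Tgfbr3 and Lrp1 were too low to be tested here. The study named them beside Cd55 in pubertal cells, from other cells captured on another platform. Sparc, a matricellular protein gene, was at 11.2 and 7.23 CPM in Cd55-positive and matched cells in puberty, 6.27 and 6.36 CPM in estrus, and 5.35 and 2.60 CPM in diestrus. The receptor tyrosine kinase Axl was at 2.50 and 0, 6.27 and 3.18, and 5.35 and 7.80 CPM. Differences in these genes could not be tested at these counts. The study placed them in a cluster enriched for basal genes, whereas the LP rule allowed counts for at most 2 of the 7 basal genes. Whether that rule left out such cells was not tested.

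The stages were then compared within the Cd55-positive cells. Of 1510 genes at 100 CPM or more in either adult set, 111 had a log2 ratio of diestrus to estrus above 1 and 85 one below -1. In the matched cells these numbers were 118 and 91. TMM scaling shifted the median ratio of puberty to estrus by 0.22 and that of puberty to diestrus by 0.26, so puberty ratios are relative to that shift. Rspo1, a secreted amplifier of Wnt signalling, was at 187.3 CPM in diestrus and at 0 in estrus. The ratio was 19.9 with the estrus sum set at a floor of 3 counts, and its exact counting interval starts at 15.8. It had a count in 21 of 66 diestrus Cd55-positive cells (31.8%, 20.9 to 44.4%), in 15 of 64 matched cells (23.4%) and in 45 of 217 diestrus LP cells without a Cd55 count (20.7%), with overlapping intervals. Diestrus cells also held 10.7 times the Wdr89 (a WD repeat protein gene) and 9.59 times the Uqcrq (a complex III subunit) of estrus cells, with Poisson-based intervals of 6.79 to 17.9 and 4.85 to 21.6.

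In estrus, Cd55-positive cells held 10.4 times the Csn1s2a (alpha-S2 casein) of diestrus cells (9.55 to 11.3), 6.30 times the Lgals3 (galectin 3; 4.35 to 9.38) and 38.6 times the Lao1 (an L-amino acid oxidase; 10.3 to 325.7, from 2 counts in diestrus). In puberty they held 28.7 times the Slpi (a secreted protease inhibitor) of estrus cells (7.81 to 239.4, from 2 counts) and 13.4 times that of diestrus cells (5.63 to 42.0). The glutamate transporter gene Slc1a1 was 11.2 times the estrus (3.69 to 55.2) and 6.54 times the diestrus level (2.88 to 18.3), and the kallikrein gene Klk10 5.53 and 5.66 times. Puberty cells were lowest in Fos, with 3.46 times as much in estrus and 2.53 times as much in diestrus, in Fosb (4.76 and 3.2 times) and in Bcam (4.62 and 3.83 times). Matched cells had the same direction for each of these 12 genes, but not the same size. The log2 ratio of puberty to estrus was 4.04 in Cd55-positive and 1.27 in matched cells for Slpi, and 2.93 and 0.98 for Slc1a1. In Cd55-positive cells these rest on 2 and 3 estrus counts. Puberty to diestrus gave 3.33 and 3.22 for Slpi, and 2.38 and 2.38 for Slc1a1. Matched cells had the larger ratio for Klk10 (puberty to estrus, 2.34 and 3.76) and, for diestrus to estrus, for Wdr89, Lao1 and Csn1s2a. The genes were chosen by their ratios in Cd55-positive cells, which favours larger ratios there. These differences in size were not tested. With 1 library per stage, stage, animals and library preparation cannot be told apart.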

How the data were processed

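The deposited values are raw molecule counts per gene and cell barcode, which the authors made with Cell Ranger 2.0 on mm10 per the labels, from a 3′ droplet protocol (10x Chromium). The authors' barcodes were used as deposited, with no further filter and no doublet caller. The rule itself removes cells with many genes of another lineage. The members and all gene lists were chosen with earlier results of these data known.

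Each member was paired, deepest first, with the LP cell of its library nearest in total counts (within 10%). Summed counts of 6 pseudobulks were tested with edgeR 4.0.16 (R 4.3.3; filterByExpr, TMM, glmQLFit, library as a block), leaving out Cd55 and the 18 rule genes. Adjusted p-values are Benjamini-Hochberg over all 3958 genes. The 6 sums come from 3 libraries of pooled mice, so p-values rest on the spread between these libraries, which edgeR estimates jointly over genes. The SE is the absolute log2 fold change over the square root of edgeR's F statistic, not an SE of the 3 library differences. An exact permutation test over 3 pairs could not go below p = 0.25. The test was also run on simulated pseudobulk counts, which were not built from cells and so do not cover sums held by few cells. Intervals are exact (Clopper-Pearson or Poisson, 95%) and cover counting error only. Poisson intervals of summed counts leave out the spread between cells. Limits for a count of 0 are 3 counts of the total. Log2 ratios outside the fit used a pseudocount of 5 CPM.

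Named genes were those that passed with the same direction in all libraries and a mean of at least 20 CPM, then those of smallest p up to 5 a direction, up to 4 per list by mean level, and 3 a direction for each stage comparison (at least 100 CPM). Gene positions are from GENCODE M21 (GRCm38). DESeq2 1.42.0 and 13 other settings were alternatives.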

Additional observations from a re-analysis of the deposited data

Results flagged for a closer look

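Some named genes differed between Cd55-positive and matched cells in opposite directions in different libraries, with Poisson intervals of the 2 sums that did not overlap. These intervals leave out the spread between cells, so the difference within a library was not tested either way. The difference between libraries was not tested, since each stage had 1 library. Lalba had a log2 ratio of 0.34 in puberty against -0.24 in estrus and -0.31 in diestrus, Csn3 of 0.12 in puberty and -0.15 in estrus, and Spp1 of 0.28, -0.17 and -0.18. Csn1s2a was at -0.33 in puberty and 1.0 in diestrus. None of these 4 milk genes was thus higher with Cd55 in every library. Trf had 0.21, -0.17 and 0.14 at puberty, estrus and diestrus, and Klf6 0.17, -0.19 and 0.18. Krt19 had 0.20 in estrus and -0.38 in diestrus, and Fos -0.47 in puberty and 0.45 in diestrus.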

How the results depend on the processing

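The number of genes called, 2, moved with most settings. It was 2 with DESeq2's size factors, 0 with DESeq2, 0 without the library block, 0 with members of at least 2 Cd55 counts, and 0 without the deepest 5% of cells. It was 1 with the second puberty table and 1 under a stricter LP rule that allowed no mature luminal or basal rule gene. It was 10 with no filter on low counts, 12 with 2 matched cells per member, 4 with all Cd55-negative LP cells and 13 without cycling cells. Leaving out 1 library gave 0 (estrus or diestrus) to 4 genes (puberty). Ly6d was among the genes called in 5 of these settings. None of the 10 named genes from the test changed sign under any setting that tested it. Apod missed the threshold in 6 of 14 settings and Chil1 in 10. The causes were not tested, other than that fewer cells or libraries enter some sums.

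Thinning moved the Cd55 share of LP cells to 8.69%, 11.1% and 10.6% in puberty, estrus and diestrus. The stricter rule moved it to 14.6% in puberty and 28.3% in estrus, and the second puberty table gave 14.6%. The cycling share of Cd55-positive cells was 3.09% in puberty and 5.71% in diestrus under the stricter rule, and 1.52% in estrus without the deepest cells. Of 66 values for the stage ratios, 59 stayed within counting error. No paired analysis was possible because the stages share fewer than 2 replicate numbers. The comparison itself was blocked by library, and without that block 0 genes were called. The typical Cd55-positive cell had 1 Cd55 molecule, which limits how well the 2 sets of cells were separated.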
